A study of Homo sapiens with 8 samples.

Results

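The genes described here carry cells from the first growth phase (G1) into DNA synthesis (S phase) and copy the genome. A list of 43 genes was followed in PNT2 cells after depletion of the epithelial splicing factors ESRP1 and ESRP2. A gene was included where the array annotation gave a row to that gene symbol alone, which held for 39 of the 43, each with 1 such row among the 18495 rows of the table. CDK4, MCM7, POLA1 and FEN1 had only rows annotated to several genes and are not analysed here. PNT2 is an immortalized cell line established from human prostatic epithelium. It carries SV40 sequences, whose large T antigen is known to bind the RB1 and p53 proteins. The siESRP group holds 4 samples in which both genes were silenced with small interfering RNA (siRNA), and the siGFP group holds 4 control samples given siRNA against green fluorescent protein. The labels give the same growth, treatment and extraction protocol for all 8, and each was measured on 1 Affymetrix human exon array. The labels do not say whether the samples of a group were separate cultures, so the p-values rest on a spread that could be technical.

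As background, entry into S phase starts when cyclin D with CDK4 or CDK6, and then cyclin E with CDK2, phosphorylate the RB1 protein. E2F transcription factors are then released and switch on cyclins, licensing factors, polymerases and nucleotide enzymes. Origins are licensed when ORC, CDC6 and CDT1 load the MCM helicase in G1, and they fire when CDC7 and CDK activity recruit CDC45 and GINS to it.

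Array medians of the deposited intensities ran from 233 to 286. After quantile normalization, arrays of the siGFP group correlated with each other at a Spearman rho of 0.988 to 0.994 and those of the siESRP group at 0.987 to 0.995, and across groups rho was 0.978 to 0.985. The ESRP1 row was 76.2% lower in siESRP and the row shared by ESRP2 and NFATC3 was 72.1% lower. Of 6 epithelial markers measured, KRT8, KRT18, KRT19, E-cadherin (CDH1) and EPCAM had group means between 2137 and 6964 and ITGB4 had means of 773 and 874. KRT18, KRT19 and CDH1 (1.42-fold) rose, and the other 3 did not pass. The leukocyte and endothelial markers PTPRC, CD3E and PECAM1, the dimmest of their lists, had means from 6.97 to 19.2, and no marker had a mean of 0. The brightest markers of the other lists were CD68, with means of 551 in siGFP and 747 in siESRP, CDH5 with 241 and 324, and COL1A1 with 252 and 182. Among markers of other cell types CD68 and CDH5 rose and COL1A1 and TEK fell. Summed over 5 leukocyte markers the level was 652 to 746 in siGFP and 821 to 1041 in siESRP. Over 5 endothelial markers it was 348 to 406 and 416 to 503, and over 6 fibroblast and smooth muscle markers 506 to 592 and 418 to 484. CD68 made up most of the leukocyte sum and CDH5 most of the endothelial sum. Apart from TEK, the other measured leukocyte and endothelial markers did not pass. The part of the markers of other cell types in the results was not tested.

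Of the 39 genes, 8 rose and 7 fell in siESRP and 24 did not pass (limma, Benjamini-Hochberg adjusted p under 0.05 over all rows). The genes that rose were CCND1, CCND2, CDK6, RB1, MCM6, POLE, TYMS and UHRF1, and those that fell were CDC25A, E2F1, ORC1, CDT1, GINS2, PRIM1 and UNG. That is 38.5% of the list, where 20.2% of all rows were called. Members are bright, with group means from 268 to 4130. Their means over all 8 arrays ran from 282 to 3230, and among the 8538 rows in that range 32.1% were called. In bulk RNA, a change in the fraction of cells in a phase and a change of RNA per cell cannot be told apart. Higher calls made up 10.9% and lower calls 9.31% of all rows. The counts by role and complex below rest on few genes and stand beside these shares. The changes were small: CCND2 and TYMS alone passed with at least 1.5-fold, which 7.08% of all rows and 9.38% of rows in the members' range did. The median log2 difference over the 39 genes was −0.05, against −0.02 over all rows, and the median size was 0.24 against 0.21. With an estimate for every gene, 19 differences were above 0 and 20 below. The 2 groups of 4 arrays did not overlap in 18 members, where 24.7% of all rows, and 38.4% of rows in the members' range, had such a gap. For 22 of the 24 that did not pass, the 95% confidence interval lay within a 1.5-fold change either way.

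**Figure D1:**
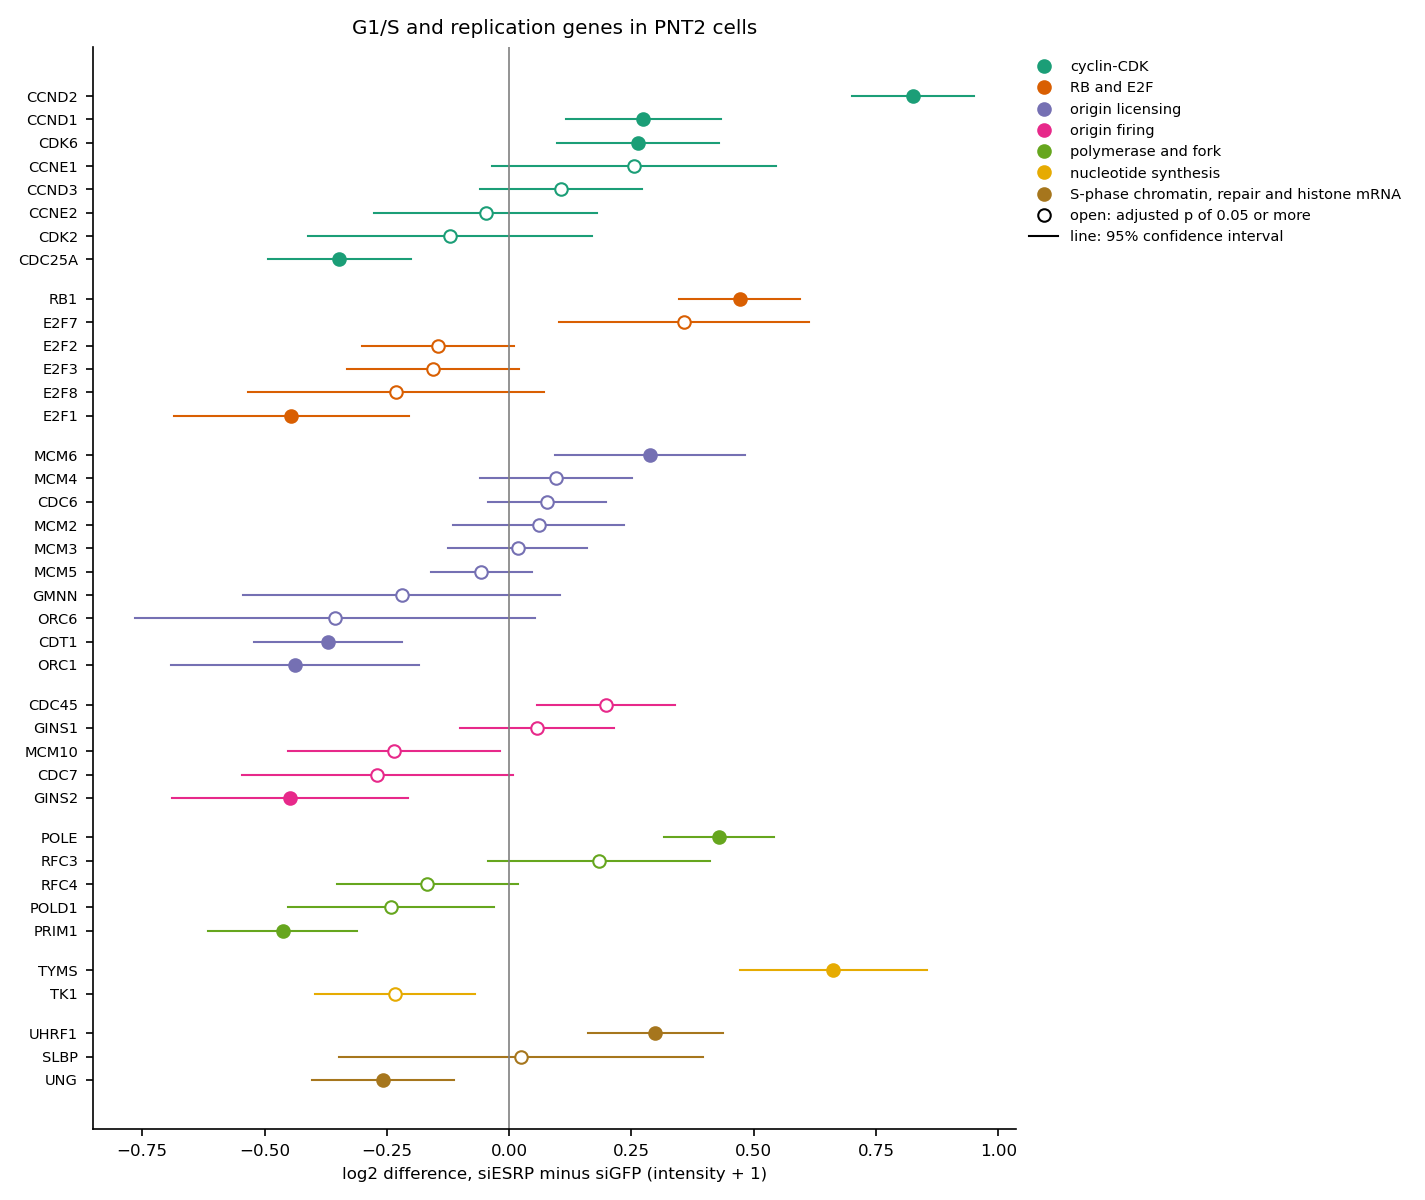
Log2 difference (siESRP minus siGFP, on intensity + 1) of each of the 39 genes with its 95% confidence interval, by role. Filled points passed the adjusted p of 0.05. Every role holds genes on both sides of 0, from PRIM1 at −0.46 to CCND2 at 0.83.

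The scaling of the arrays matters for these small changes. On the intensities as deposited, without normalization between arrays, CCND2, TYMS and POLE still rose and 0 members fell (limma, adjusted p; 8 were lower at an unadjusted p under 0.05). With median scaling 4 rose and 4 fell, and CCND1, CDK6, MCM6, UHRF1, E2F1, ORC1 and UNG did not pass. The direction of all 15 called genes was the same under both. Over the whole table of 18495 rows, 1673 were called as deposited (1045 higher, 628 lower). With median scaling 3057 were called (1538 higher, 1519 lower), against 3729 as reported. Under these scalings the whole table had median log2 differences of −0.10 and −0.11. Fold changes are on the log2(intensity + 1) scale, and the lowest member value was 249.5, so none was at the floor of 0.

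Among 8 cyclin and CDK genes, CCND1, CCND2 and CDK6 rose, CDC25A fell and 4 did not pass. CCND2, a D-type cyclin that activates CDK4 and CDK6, measured 2416, 2257, 2228 and 2418 in siGFP and 3941, 4224, 3985 and 4368 in siESRP. All siESRP arrays lay well above all siGFP arrays. The mean rose 1.77-fold, from 2330 ± 101 to 4130 ± 202 (SD, n = 4 each; log2 difference 0.83 ± 0.05 SE, limma adjusted p = 0.000183), the largest change of the list. CCND1, the sister cyclin, measured 2287, 2517, 2131 and 2318 in siGFP and 2619, 2861, 2714 and 2992 in siESRP. The groups were apart, but by a narrow gap. CCND1 rose 1.21-fold (log2 difference 0.27 ± 0.07 SE, limma adjusted p = 0.0280), and the call ended without siGFP replicate 1, 3 or 4 or siESRP replicate 2 or 4 (adjusted p = 0.0616 to 0.0709).

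CDK6, the kinase partner of the D cyclins, measured 729, 769, 828 and 725 in siGFP and 912, 831, 991 and 932 in siESRP. The highest control array and the lowest siESRP array were almost level. CDK6 rose 1.20-fold (log2 difference 0.26 ± 0.07 SE, limma adjusted p = 0.0382), a call that ended without siGFP replicate 1, 2 or 4 or siESRP replicate 1, 3 or 4 (adjusted p = 0.0701 to 0.0954). CDC25A, the phosphatase that removes inhibitory phosphates from CDK2, measured 895, 909, 944 and 851 in siGFP and 730, 655, 765 and 682 in siESRP. Every siESRP array was below every control array. CDC25A fell 1.27-fold (log2 difference −0.35 ± 0.06 SE, limma adjusted p = 0.00878). The third D cyclin, CCND3, had means of 791 and 850 (limma adjusted p = 0.361), and its groups overlapped. The cyclin E genes CCNE1 (681 and 807) and CCNE2 (1585 and 1535) and the kinase CDK2 (1434 and 1324) did not pass either.

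**Figure D2:**
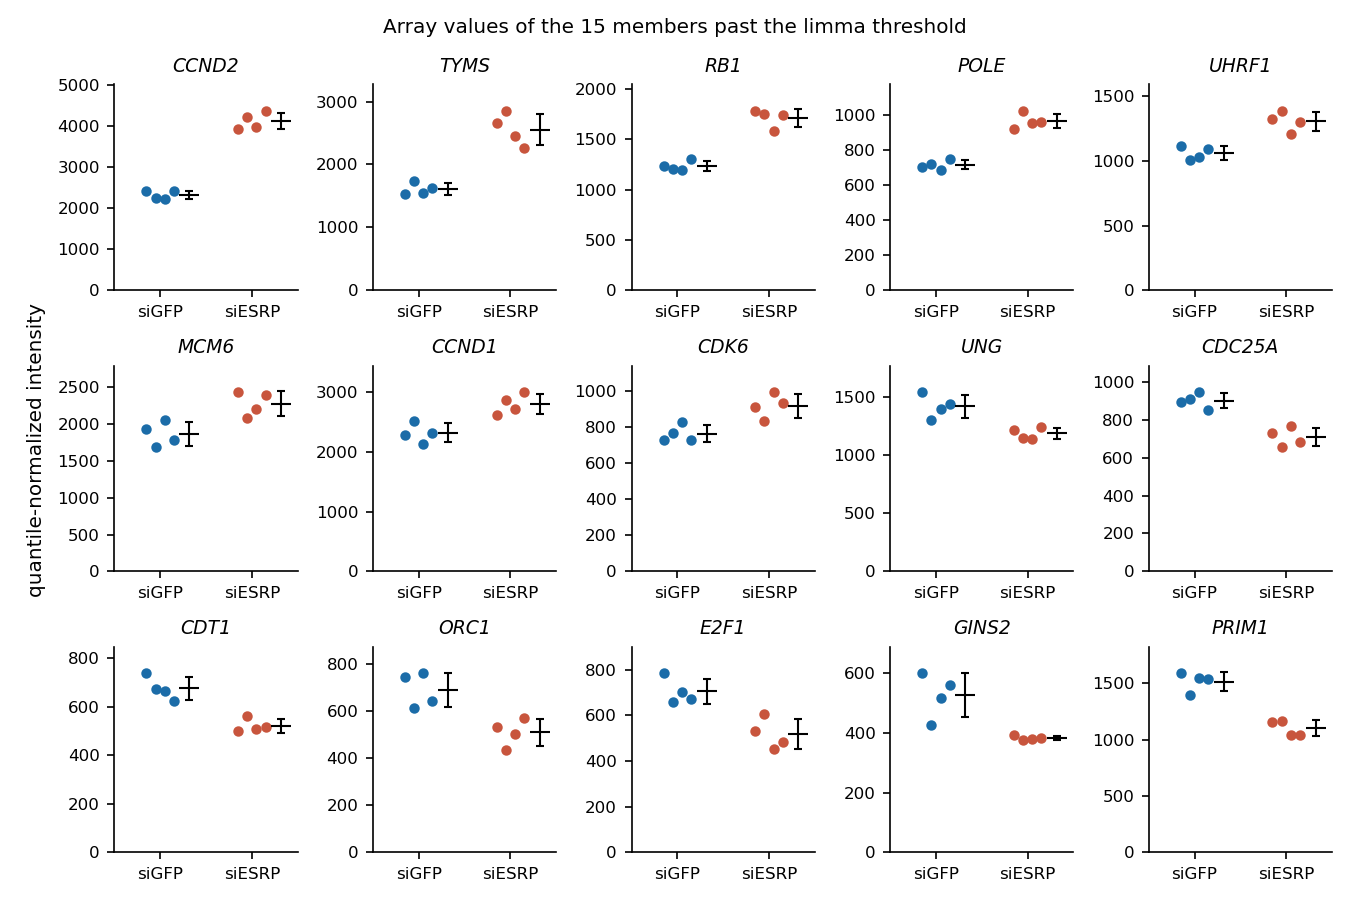
Quantile-normalized intensity of each of the 15 genes past the threshold on the 4 siGFP (blue) and 4 siESRP (red) arrays, with mean and SD beside the points and axes from 0. The groups do not overlap in any panel, and the gap is widest for CCND2 and narrow for CDK6 and MCM6.

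RB1 and E2F1 went opposite ways. Of the 6 genes of this group, 1 rose, 1 fell and 4 did not pass. RB1, which encodes the repressor that holds E2F factors in check, measured 1230, 1206, 1199 and 1301 in siGFP and 1776, 1753, 1581 and 1737 in siESRP. The lowest siESRP array was clear of the highest control. RB1 rose 1.39-fold, from 1234 ± 46.6 to 1712 ± 88.5 (SD, n = 4 each; log2 difference 0.47 ± 0.05 SE, limma adjusted p = 0.00137). E2F1, an activator of S-phase genes, measured 783, 660, 701 and 671 in siGFP and 530, 605, 454 and 484 in siESRP. All siESRP arrays were lower. E2F1 fell 1.36-fold (log2 difference −0.45 ± 0.10 SE, limma adjusted p = 0.0220), and the call ended without siGFP replicate 1 or 3 or siESRP replicate 1 or 4 (adjusted p = 0.0520 to 0.0604).

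The other activators E2F2 (log2 difference −0.15, 95% confidence interval −0.30 to 0.01) and E2F3 (−0.16, −0.33 to 0.02) did not pass. E2F7 and E2F8 encode repressors of the family. E2F7 measured 416, 411, 408 and 396 in siGFP and 525, 588, 576 and 419 in siESRP, with replicate 4 of siESRP close to the controls (limma adjusted p = 0.0591). Without that array it passed (adjusted p = 0.00463), and with any other array left out it did not (0.107 to 0.129). E2F8 overlapped between the groups, with means of 799 and 683.

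Many genes of this list are textbook E2F targets, so their promoters were searched for E2F-type octamers. RefSeq promoter windows of GRCh38.p14, from 250 bases before to 50 after a start site, were found for 32 of the 39 genes. The octamers searched on both strands were TTTCCCGC, TTTGGCGC, TTTCGCGC and TTTGCCGC, which can overlap one another. Of all 35116 windows 3.31% held at least 1, and of the 45 windows of these 32 genes 42.2% did. At least 1 match was found for 4 of the 6 genes with a window that rose, 5 of 7 that fell and 9 of 19 that did not pass. These counts were not tested, and a match is a string of letters, not a shown binding site. All windows held for RB1, ORC1, UHRF1 and CCND3 belong to starts inside the gene, at 172699, 5080, 6421 to 7287 and 1347 to 110830 bases from its first base. A CCAAT box, bound by NF-Y, was in 34.6% of all windows and 53.3% of the 45.

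The 120 bases before the start site are shown for 3 genes that rose (TYMS, POLE and MCM6) and 5 that fell (CDT1, CDC25A, E2F1, GINS2 and PRIM1), so that both directions can be read side by side. Capitals mark E2F-type octamers on either strand. Each runs 5′ to 3′ along the gene's own strand.
TYMS: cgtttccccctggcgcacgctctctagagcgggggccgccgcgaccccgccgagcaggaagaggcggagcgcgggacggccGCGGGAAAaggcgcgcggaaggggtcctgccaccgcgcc
POLE: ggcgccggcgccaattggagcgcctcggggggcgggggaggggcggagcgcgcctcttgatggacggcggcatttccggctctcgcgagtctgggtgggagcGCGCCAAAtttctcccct
MCM6: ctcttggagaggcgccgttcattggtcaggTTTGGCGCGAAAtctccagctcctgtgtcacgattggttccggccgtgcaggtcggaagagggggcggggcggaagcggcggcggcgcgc
CDT1: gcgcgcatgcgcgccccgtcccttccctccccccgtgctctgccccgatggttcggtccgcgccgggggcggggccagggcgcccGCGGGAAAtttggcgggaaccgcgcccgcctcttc
CDC25A: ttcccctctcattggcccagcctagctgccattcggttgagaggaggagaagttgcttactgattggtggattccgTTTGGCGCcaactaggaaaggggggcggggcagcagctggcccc
E2F1: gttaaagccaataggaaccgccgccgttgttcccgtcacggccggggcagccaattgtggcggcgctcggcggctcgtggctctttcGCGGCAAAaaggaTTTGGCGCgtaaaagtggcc
GINS2: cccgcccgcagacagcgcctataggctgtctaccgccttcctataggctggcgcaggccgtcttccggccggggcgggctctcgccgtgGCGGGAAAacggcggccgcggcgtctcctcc
PRIM1: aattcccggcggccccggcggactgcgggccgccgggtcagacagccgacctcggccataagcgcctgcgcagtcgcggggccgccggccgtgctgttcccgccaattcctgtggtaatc
The stretches lie on the plus strand at chr18:657533-657652 (TYMS) and chr16:88803669-88803788 (CDT1). On the minus strand they lie at chr12:132687343-132687462 (POLE), chr2:135876444-135876563 (MCM6), chr3:48188418-48188537 (CDC25A), chr20:33686386-33686505 (E2F1), chr16:85688955-85689074 (GINS2) and chr12:56752324-56752443 (PRIM1). TYMS and CDT1, which changed in opposite directions, both hold the octamer TTTCCCGC on the opposite strand, 39 and 35 bases before the start. In MCM6 the capitals are 2 octamers that overlap on opposite strands, and a second such pair lies further upstream, from base −152. PRIM1 holds none of the 4 octamers in its window.

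**Figure D3:**
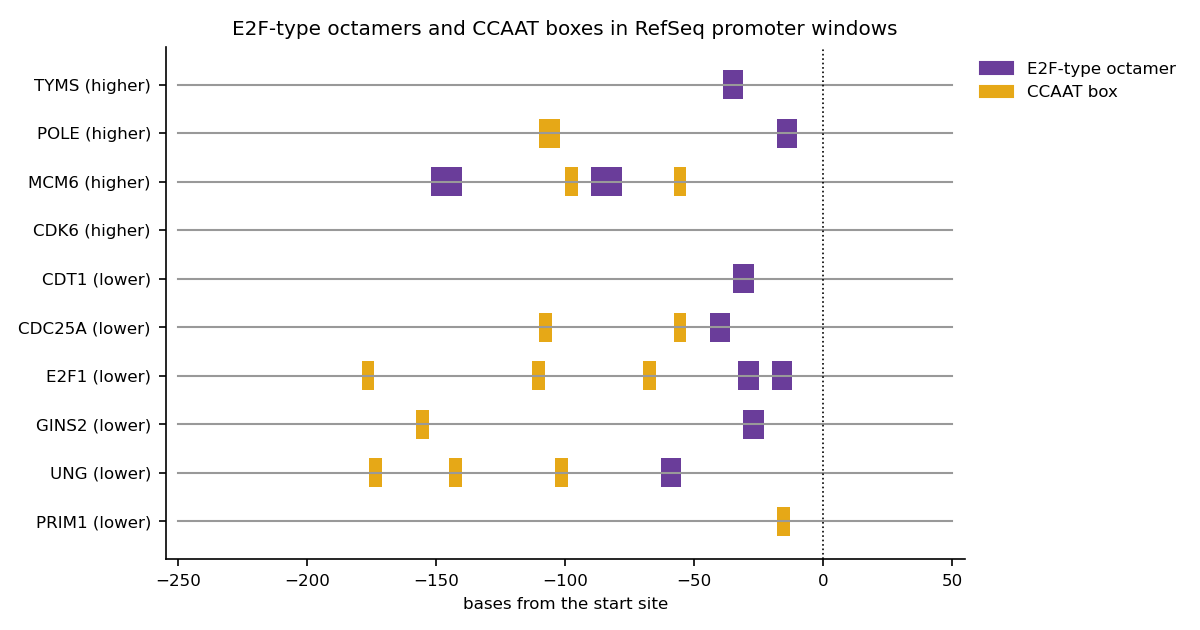
Positions of E2F-type octamers (purple) and CCAAT boxes (yellow) from 250 bases before to 50 after the start site (dotted line, in bases) of 10 called genes, with the direction of their RNA change. Octamers within 50 bases of the start appear in genes that rose (TYMS, POLE) and in genes that fell (CDT1, CDC25A, E2F1, GINS2).

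Among the genes that license origins, ORC1 and CDT1 fell and the helicase genes mostly did not move past the threshold. Of 10 measured, 1 rose, 2 fell and 7 did not pass. That is 30% called, near the 32.1% of rows in the members' range of intensity. CDT1, the factor that brings the MCM helicase to origins, measured 738, 673, 666 and 626 in siGFP and 502, 563, 507 and 516 in siESRP. No siESRP array reached the lowest control. CDT1 fell 1.29-fold, from 676 ± 46.4 to 522 ± 28.0 (SD, n = 4 each; log2 difference −0.37 ± 0.06 SE, limma adjusted p = 0.00790). ORC1, the largest subunit of the origin recognition complex, measured 742, 614, 758 and 643 in siGFP and 532, 434, 502 and 568 in siESRP. The controls themselves fall into a higher and a lower pair, all above siESRP. ORC1 fell 1.36-fold (log2 difference −0.44 ± 0.11 SE, limma adjusted p = 0.0284), and the call ended without siGFP replicate 1, 3 or 4 or siESRP replicate 1, 2 or 3 (adjusted p = 0.0507 to 0.0732).

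MCM6, a subunit of the replicative helicase, measured 1937, 1686, 2063 and 1788 in siGFP and 2433, 2084, 2201 and 2403 in siESRP. The highest control and the lowest siESRP array were almost level. MCM6 rose 1.22-fold (log2 difference 0.29 ± 0.08 SE, limma adjusted p = 0.0487), and it did not pass without siGFP replicate 1, 2 or 4 or siESRP replicate 1, 3 or 4 (adjusted p = 0.0700 to 0.121). For the sister subunits MCM2, MCM3, MCM4 and MCM5 the log2 differences were 0.06, 0.02, 0.10 and −0.06. Their 95% confidence intervals together ran from −0.16 to 0.25. CDC6, the loading ATPase, had means of 2059 ± 89.0 and 2173 ± 95.8 (SD, n = 4 each) and did not pass. GMNN, which encodes the CDT1 inhibitor geminin, had means of 1388 and 1186 and overlapped (log2 difference −0.22, limma adjusted p = 0.328). ORC6 had the widest interval of the list, −0.77 to 0.05.

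Origin firing genes gave 1 call among 5. GINS2, a subunit of the complex that joins CDC45 and the MCM ring, measured 599, 427, 517 and 560 in siGFP and 393, 376, 379 and 381 in siESRP. The 4 siESRP arrays were nearly equal, and siGFP replicate 2 stood closest to them. GINS2 fell 1.36-fold (log2 difference −0.45 ± 0.10 SE, limma adjusted p = 0.0221). The call ended without siGFP replicate 3 or 4 or siESRP replicate 1, 2 or 4 (adjusted p = 0.0524 to 0.0613), while without siGFP replicate 2 the adjusted p was 0.00370. GINS1, another subunit, had means of 2388 and 2479 and a log2 difference of 0.06. CDC45 had means of 910 ± 49.9 and 1043 ± 54.8 (SD, n = 4 each) without overlap, and did not pass (limma adjusted p = 0.0587). It passed without siESRP replicate 3 (adjusted p = 0.0310), and with any other array left out it did not (0.0732 to 0.132). The log2 differences of the kinase CDC7 (−0.27) and of MCM10 (−0.24), which helps activate the helicase, did not pass.

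At the fork, the primase PRIM1 fell and the leading-strand polymerase POLE rose. Of 5 measured, 3 did not pass. PRIM1, the catalytic primase that lays RNA primers, measured 1588, 1395, 1543 and 1539 in siGFP and 1158, 1165, 1040 and 1038 in siESRP. The groups were far apart for a change of this size. PRIM1 fell 1.38-fold, from 1516 ± 84.1 to 1100 ± 70.8 (SD, n = 4 each; log2 difference −0.46 ± 0.06 SE, limma adjusted p = 0.00327). POLE, the catalytic subunit of DNA polymerase epsilon, measured 702, 719, 688 and 748 in siGFP and 921, 1019, 950 and 959 in siESRP. All siESRP arrays were above all controls. POLE rose 1.35-fold, from 714 ± 26.1 to 962 ± 41.0 (SD, n = 4 each; log2 difference 0.43 ± 0.05 SE, limma adjusted p = 0.00136). POLD1, the catalytic subunit of polymerase delta, had means of 420 and 356 (limma adjusted p = 0.108). The clamp loader subunits RFC3 (0.18) and RFC4 (−0.17) had log2 differences that did not pass.

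The nucleotide enzymes TYMS and TK1, which supply thymidylate by synthesis and by salvage, had differences of opposite sign. TYMS, thymidylate synthase, measured 1536, 1732, 1550 and 1621 in siGFP and 2659, 2844, 2450 and 2264 in siESRP. The lowest siESRP array was well above the highest control. TYMS rose 1.58-fold, from 1610 ± 89.5 to 2554 ± 252 (SD, n = 4 each; log2 difference 0.66 ± 0.08 SE, limma adjusted p = 0.00196). TK1, thymidine kinase, measured 1529, 1729, 1469 and 1561 in siGFP and 1243, 1444, 1301 and 1357 in siESRP. The groups did not overlap, yet TK1 did not pass (log2 difference −0.23, limma adjusted p = 0.0563). It passed without siESRP replicate 2 (adjusted p = 0.0488), and with any other array left out it did not (0.0603 to 0.133).

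UHRF1 rose and UNG fell among the remaining 3 genes. UHRF1, which recruits DNA methyltransferase to newly copied DNA, measured 1120, 1005, 1031 and 1096 in siGFP and 1329, 1385, 1212 and 1305 in siESRP. The siESRP arrays were all higher. UHRF1 rose 1.23-fold (log2 difference 0.30 ± 0.06 SE, limma adjusted p = 0.0123). UHRF1 did not pass with median scaling (limma adjusted p = 0.0917) or on the deposited scale (0.216). UNG, the glycosylase that removes uracil from DNA, measured 1544, 1310, 1398 and 1447 in siGFP and 1223, 1153, 1140 and 1243 in siESRP. The controls were all higher. UNG fell 1.20-fold (log2 difference −0.26 ± 0.06 SE, limma adjusted p = 0.0259), and the call ended without siGFP replicate 1, 3 or 4 or siESRP replicate 1, 2 or 3 (adjusted p = 0.0506 to 0.0680). SLBP, which binds the stem-loop of histone mRNA, spread most among the controls, with 2401, 1458, 2147 and 1760. Its siESRP values of 2080, 1758, 2025 and 1908 lay within that range.

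The 15 calls differed in how far they held when 1 array was left out. With each of the 8 arrays left out in turn, CCND2, TYMS, POLE, RB1, PRIM1, CDT1, CDC25A and UHRF1 passed all 8 times. The other 7, CCND1, CDK6, E2F1, ORC1, MCM6, GINS2 and UNG, lost the call in at least 4 of the 8. These 7 were the nearest to the threshold with all 8 arrays (limma adjusted p = 0.0220 to 0.0487, against 0.0123 or less for the others). With fewer arrays in each fit, the rows called over the whole table ran from 2719 to 3793, against 3729 with all 8. The number of members called ran from 9 to 13. It was 9 without siGFP replicate 1, siGFP replicate 4 or siESRP replicate 1.

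**Figure D4:**
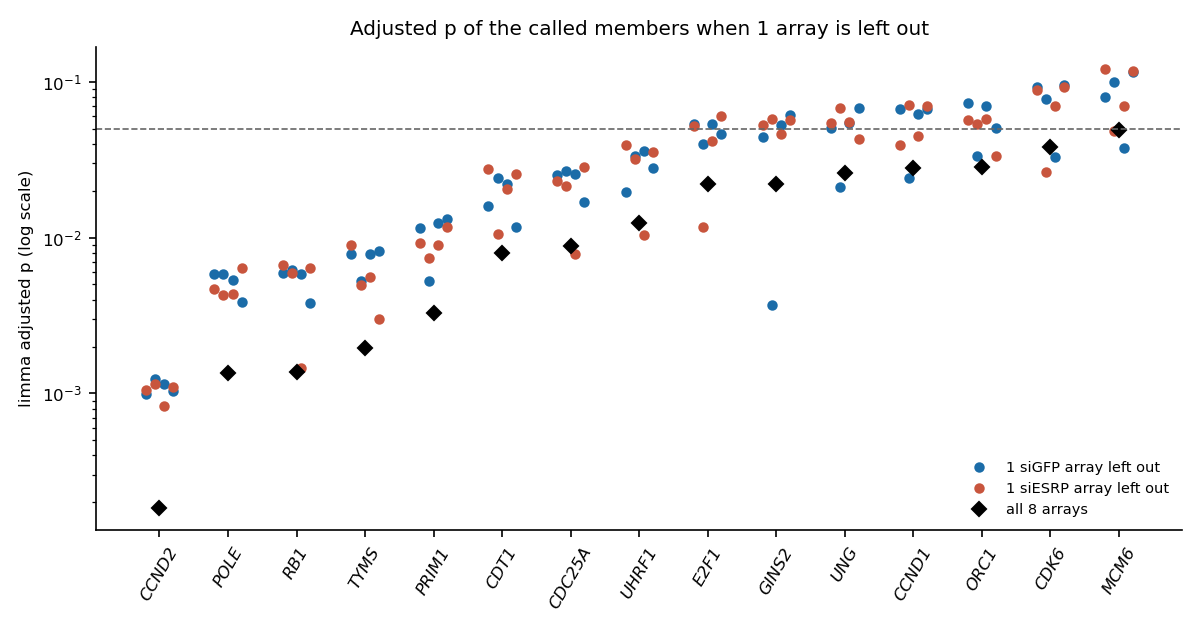
Limma adjusted p (log scale) of the 15 called genes with all 8 arrays (black) and with 1 siGFP (blue) or 1 siESRP (red) array left out. The dashed line is the threshold of 0.05, and 8 genes stay below it throughout.

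A wider set of G1/S and replication genes outside the list was read in the same way. Of 74 listed, 64 were measured, and 6 rose and 6 fell. That is 18.8%, where 20.2% of all rows and 32.1% of rows in the list members' range of intensity were called. Group means in the wider set ran from 19.9 to 4085. Among CDK inhibitors, of which 6 were measured, CDKN1A alone rose. CDKN1A, which encodes p21, measured 821, 1562, 1072 and 1066 in siGFP and 2195, 2563, 2134 and 2114 in siESRP. The controls varied, with replicate 2 highest, and all lay below siESRP. CDKN1A rose 2.04-fold (log2 difference 1.03 ± 0.19 SE, limma adjusted p = 0.00952). CDKN1B (log2 difference −0.03), CDKN2A (0.06) and CDKN2B (0.00) did not pass.

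Of 5 measured pocket protein, E2F and DP genes outside the list, TFDP2 and E2F5 rose and 3 did not pass. TFDP2, a dimer partner of the E2F proteins, measured 528, 505, 580 and 462 in siGFP and 979, 927, 1014 and 961 in siESRP. The gap between the groups was several times their spread. TFDP2 rose 1.87-fold (log2 difference 0.91 ± 0.07 SE, limma adjusted p = 0.000416). E2F5, a repressor-type E2F, rose 1.44-fold from 613 ± 51.4 to 884 ± 67.7 (SD, n = 4 each, limma adjusted p = 0.00496). FBXW7, the ubiquitin ligase subunit that targets cyclin E, was the 1 call among 6 genes for A cyclins, G1 ubiquitin ligases and CDC25B. FBXW7 rose 1.46-fold from 308 ± 28.3 to 450 ± 26.8 (SD, n = 4 each, limma adjusted p = 0.00377). Of the 8 measured E2F genes, members and others together, E2F5 rose, E2F1 fell and 6 did not pass.

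DNA polymerase epsilon held calls in both directions. POLE rose while POLE4, a small accessory subunit, fell 1.48-fold from 1788 ± 119 to 1215 ± 195 (SD, n = 4 each, limma adjusted p = 0.0158). POLE2 (log2 difference −0.07) and POLE3 (−0.17) did not pass. In polymerase alpha-primase, PRIM1 fell, whereas POLA2 (0.15) and PRIM2 (0.16) did not pass. All 4 polymerase delta subunits had differences below 0, from −0.28 to −0.21, and only POLD2 passed (1.16-fold lower, limma adjusted p = 0.0456). That call ended without siGFP replicate 1, 2 or 3 or any 1 siESRP array (adjusted p = 0.0527 to 0.107).

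Replication factor C gave 1 call among 5: RFC5 fell 1.24-fold (limma adjusted p = 0.0221; 0.0590 and 0.0607 without siGFP replicate 1 or 4). RPA2, of the single-strand binding protein RPA, fell 1.30-fold (limma adjusted p = 0.0265), a call that ended without siGFP replicate 1 or siESRP replicate 2, 3 or 4 (adjusted p = 0.0579 to 0.0701). DBF4B, an activator of CDC7, fell 1.12-fold (limma adjusted p = 0.0362). Its call ended without siGFP replicate 1, 2 or 4 or siESRP replicate 1, 2 or 4 (adjusted p = 0.0596 to 0.0979), and its second row did not pass (adjusted p = 0.269). Of 7 further licensing genes (ORC2 to ORC5, MCM8, MCM9 and MCMBP) 0 passed in limma, 2 were lower at an unadjusted p under 0.05, and 1 passed with array weights.

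**Figure D5:**
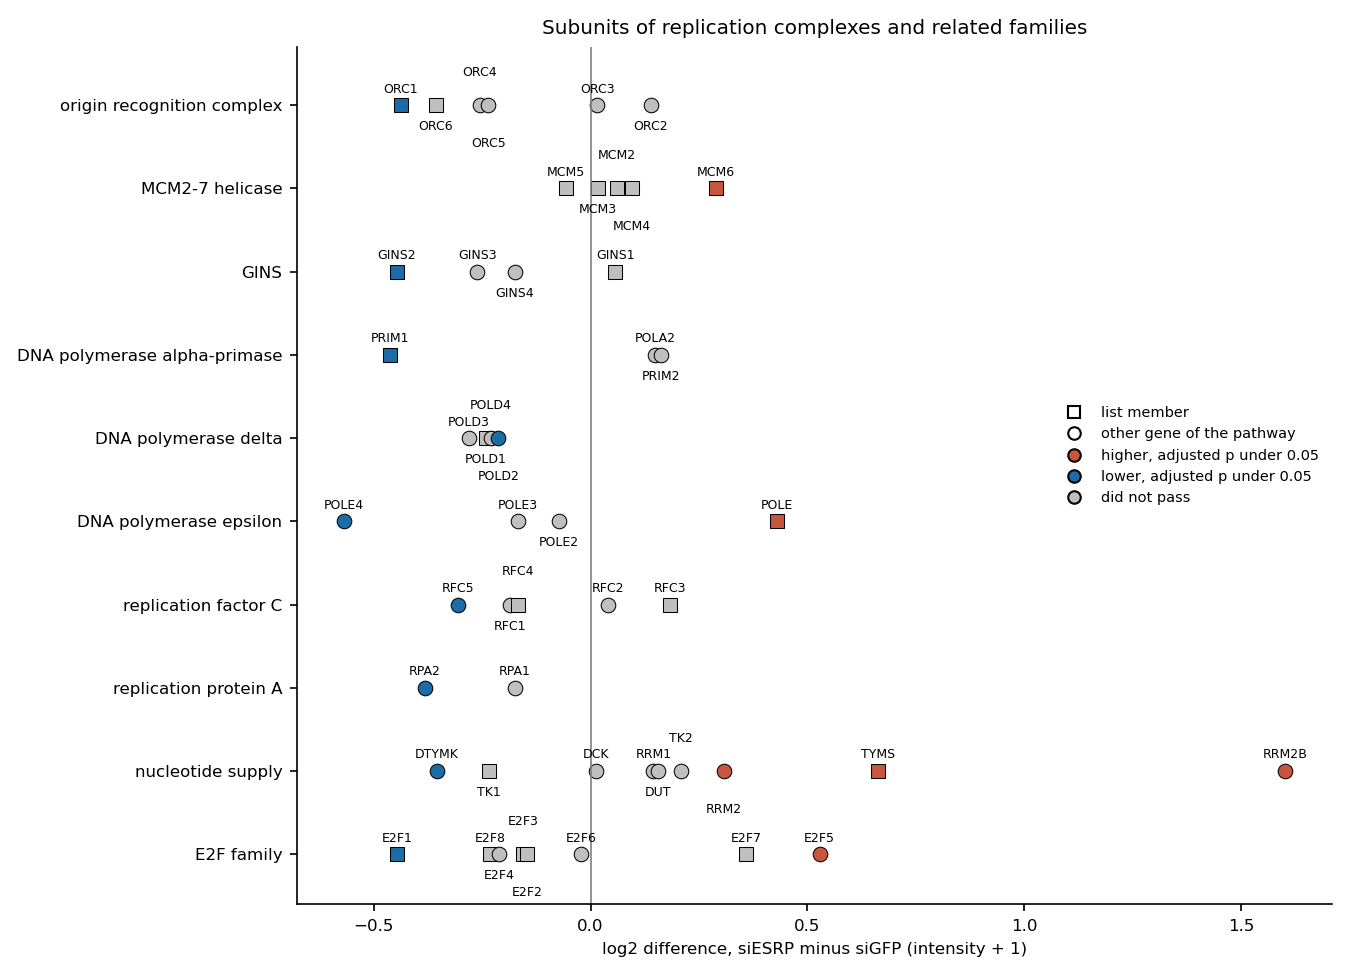
Log2 difference (siESRP minus siGFP, on intensity + 1) of the subunits of 8 replication complexes and of nucleotide supply and E2F genes. Squares are list members and circles other genes, with red higher and blue lower past the threshold. POLE at 0.43 and POLE4 at −0.57 lie on opposite sides of 0.

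Nucleotide supply held the largest increase of the wider set. RRM2B, the ribonucleotide reductase subunit known as a p53 target, measured 542, 658, 596 and 654 in siGFP and 1879, 2204, 1738 and 1646 in siESRP. The siESRP arrays were all far above. RRM2B rose 3.03-fold (log2 difference 1.60 ± 0.11 SE, limma adjusted p = 0.000218). Its S-phase counterpart RRM2 measured 3351, 3053, 3624 and 3175 in siGFP and 4217, 3696, 4175 and 4251 in siESRP. The groups nearly met. RRM2 rose 1.24-fold (limma adjusted p = 0.0246), and the call ended without siGFP replicate 1, 2 or 4 or siESRP replicate 1, 3 or 4 (adjusted p = 0.0528 to 0.0696). DTYMK, which phosphorylates thymidylate, fell in both of its rows, 1.28-fold and 1.29-fold (limma adjusted p = 0.0430 and 0.0282). In the first of these, the brighter, the groups overlapped, with siGFP replicate 4 at 420 and siESRP replicate 1 at 425. That row did not pass without siGFP replicate 1, 2 or 3 or siESRP replicate 2, 3 or 4 (adjusted p = 0.0791 to 0.103). RRM1, the large reductase subunit, had a log2 difference of 0.14 (limma adjusted p = 0.498).

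Chromatin genes that act with the fork gave 0 calls among 7 in limma. At an unadjusted p under 0.05, 3 were higher and 1 lower, and with trended and robust eBayes or with array weights 2 rose and 1 fell. DNMT1, the maintenance DNA methyltransferase, had means of 1204 ± 94.2 and 1426 ± 88.6 (SD, n = 4 each, limma adjusted p = 0.0536). CHAF1A, a histone chaperone subunit, had means of 396 ± 22.9 and 292 ± 53.6 (SD, n = 4 each, limma adjusted p = 0.0550). ASF1B had means of 1074 ± 64.2 and 1380 ± 182 (SD, n = 4 each, limma adjusted p = 0.0552), and its groups overlapped.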

How the data were processed

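RNA from 4 siESRP and 4 siGFP samples of PNT2 cells was measured on exon arrays. The authors deposited 1 table of linear intensity values, with 18495 gene-level rows. How they corrected background, summarised probes and scaled arrays is not given in the sources used here. Between 2.70% and 4.02% of values per array lie below 0. Because gene-level values pool exons, a change in exon use cannot be told apart from one in RNA amount.

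Arrays were quantile normalized, values below 0 set to 0, and log2(value + 1) taken. limma (version 3.58.1, R 4.3.3; lmFit and eBayes, two-sided, no covariate) was fitted once to all rows of the 8 arrays, with Benjamini-Hochberg adjustment over all 18495. The steps were run on simulated data with independent noise in each value, which cannot show how the scaling of arrays affects the calls. The number of arrays limits the precision. Gene symbols are those of the platform annotation, updated by Entrez ID with RefSeq (GRCh38.p14). Apart from the row of ESRP2 and NFATC3, rows shared with another gene were not used to measure a gene. Of several rows for 1 gene the brightest was used.

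Members and lists were chosen with earlier results of these data known. Named were all members, with array values for those called, and the called genes of the wider list with a group mean of at least 100; other values were picked after they were seen. Alternatives were 3 scalings or offsets, a filter on dim rows, 2 variance models, a replicate block, 2 stricter thresholds, averaging rows of a gene, and leaving out each array. Promoter sequences are RefSeq's.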

Additional observations from a re-analysis of the deposited data

Results flagged for a closer look

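In 3 of 102 groups of 4 array values (the 39 genes of the list and the 12 called genes of the wider set), 1 array stood apart from the other 3 by more than Dixon's 95% critical value. Chance gives about 1 in 20, or 5.1. GMNN in siESRP was high on replicate 1, at 1396 against 1091 to 1131 on the other arrays (gap ratio 0.869). RFC5 in siESRP was low on replicate 3, at 1095 against 1267 to 1291 (0.878). RRM2 in siESRP was low on replicate 2, at 3696 against 4175 to 4251 (0.864).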

How the results depend on the processing

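Over 18 alternatives none of the 15 called genes changed direction, nor did the 12 called genes of the wider set. CCND2 and TYMS passed in all 18, and POLE failed only the 1.5-fold threshold. As reported, 3729 rows and 15 members (8 higher, 7 lower) were called, with 12 genes of the wider set. On the deposited scale these were 1673 rows, 3 members (3 higher, 0 lower) and 3 genes. Median scaling gave 3057 rows, 8 members (4 and 4) and 7 genes. It moved the members' median from −0.05 to −0.094, beside −0.11 over all rows. At adjusted p under 0.01 there were 1808 rows, 7 members (4 and 3) and 5 genes. With at least 1.5-fold there were 1309 rows, 2 members (2 and 0) and 3 genes. The cause of these losses was not tested, beyond the stricter thresholds themselves. A pseudocount of 16, the filter on dim rows, trended and robust eBayes, array weights and averaging rows left 15 to 17 members called.

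Leaving out 1 array gave 2719 to 3793 rows, 9 to 13 members (5 to 7 higher, 3 to 7 lower) and 8 to 12 genes of the wider set, with fewer samples in each fit. The median log2 difference of the members ran from −0.0749 to 0.0029, the latter without siESRP replicate 3.

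Deviations of same-numbered arrays of the 2 groups correlated at 0.05, 0.05, −0.18 and 0.03 over all rows. Over rows with a mean of at least 100 the values were 0.15, 0.09, −0.27 and −0.02. There the highest value, 0.51, was between siGFP replicate 3 and siESRP replicate 1. Whether the numbers mark samples handled together cannot be decided from these correlations. With the replicate number as a block, 2292 rows, 7 members (4 higher, 3 lower) and 7 genes were called, and CCND1, CDK6, E2F1, ORC1, MCM6, GINS2, UHRF1 and UNG did not pass.

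Near 0, estimates of 3 genes that did not pass changed sign. MCM3 was −0.0123 as deposited and −0.0293 with median scaling, and ran from −0.0092 to 0.0605 with 1 array left out (below 0 without siGFP replicate 4 or siESRP replicate 4). SLBP was −0.0105 with median scaling and ran from −0.106 to 0.134 (below 0 without siGFP replicate 2 or 4 or siESRP replicate 1). CCNE2 ran from −0.091 to 0.0191 (above 0 without siESRP replicate 3).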

Other observations

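Within siGFP, replicates 1 and 3 lay on one side of replicates 2 and 4 in 24 of the 39 genes (61.5%), as in ORC1, GMNN, SLBP and CCNE1. This was so in 45.6% of all rows and 54.5% of rows in the members' range of intensity. In siESRP no split of the arrays held more than 16 of the 39 genes. These shares are descriptions and were not tested. The coefficient of variation of a listed gene within its group had a median of 7.07% in siGFP and 6.44% in siESRP.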
